A study of Homo sapiens and Mus musculus with 66 samples.

Results

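The lamin-B1 regions of K562 cells were compared with those of HCT116 cells. For each line the authors deposited 1 list of regions at or near the nuclear lamina, with 664 regions for K562 and 443 for HCT116 bulk cells, out of 5781 regions in the 14 lists of the series. The members compared were the 30970 windows of 100 kb of the hg19 chromosomes, each placed by whether at least 50% of it lay in a region of either list. In all, 14701 windows were called in at least 1 of the lists.

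K562 is a human chronic myelogenous leukaemia line with erythroid and megakaryocytic features, grown in suspension, and HCT116 is a human colorectal carcinoma line with epithelial features, grown on plates. Both were untreated and asynchronous, and each gave 2 replicates of a streptavidin pull-down and of its input, 8 libraries of the 66 in the series. Lists named 90m G1 and 180m G1 are also used below. They come from HCT116 cells arrested in mitosis with nocodazole, released for 90 or 180 min, fixed and sorted for G1 DNA content. In cTSA-seq an antibody against lamin-B1 directs a peroxidase that deposits biotin on chromatin at or near the lamina, and the biotinylated chromatin is pulled down and sequenced. The lists hold region starts and ends without signal or read counts, so the depth behind a call is unknown, and the 2 replicates of a line had been merged into 1 list. No difference between the lines has a replicate spread or a test. The differences are therefore set beside the spread between lists of the same line and the spread over chromosomes. K562 is known to be aneuploid, with deleted segments on the short arm of chromosome 9 and no Y chromosome. Copy number and gene expression of the lines were not analysed here, so neither line was checked against marker expression.

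The nuclear lamina is a protein mesh under the inner nuclear membrane, built from A-type and B-type lamins. Chromatin held against it forms large lamina-associated domains, which in many cell types are poor in genes and in GC and are transcribed little. Part of these domains is shared between cell types, and part differs with lineage, where genes of other cell types are often found at the lamina.

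The genes SI, ATOH1, CLDN1, ITGB6, GYPC, TRIM58 and F13A1 serve as landmarks of the single-line classes, and the sequences before their starts are shown for their base composition, which the window classes are compared on below. They are the genes of the blood cell and epithelial lists that lay in the windows of 1 line and that other lists of the series called too. In K562 this meant called also by TSA-seq, the related method from which the authors made a K562 list with published data, and in none of 6 further HCT116 lists from asynchronous cells, and in HCT116 called in at least 5 of these 6 lists, whatever TSA-seq called in K562 (it called TRIM58). The 250 bases before the start of the canonical transcript were read from hg19 on the strand of the gene, and CG dinucleotides are in capitals. The genes in K562-only windows were the brush border disaccharidase gene SI (chr3:164796285-164796534, minus strand), the secretory lineage factor gene ATOH1 (chr4:94749654-94749903, plus strand), the tight junction gene CLDN1 (chr3:190040236-190040485, minus strand) and the epithelial integrin gene ITGB6 (chr2:161056784-161057033, minus strand). The genes in HCT116-only windows were the red cell membrane glycophorin gene GYPC (chr2:127413484-127413733, plus strand), the erythroid ubiquitin ligase gene TRIM58 (chr1:248020239-248020488, plus strand) and the coagulation factor XIII subunit gene F13A1 (chr6:6320896-6321145, minus strand).
SI: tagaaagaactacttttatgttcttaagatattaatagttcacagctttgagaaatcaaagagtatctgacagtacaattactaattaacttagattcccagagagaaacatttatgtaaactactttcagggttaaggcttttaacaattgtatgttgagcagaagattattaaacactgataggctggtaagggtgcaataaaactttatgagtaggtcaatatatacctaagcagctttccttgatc
ATOH1: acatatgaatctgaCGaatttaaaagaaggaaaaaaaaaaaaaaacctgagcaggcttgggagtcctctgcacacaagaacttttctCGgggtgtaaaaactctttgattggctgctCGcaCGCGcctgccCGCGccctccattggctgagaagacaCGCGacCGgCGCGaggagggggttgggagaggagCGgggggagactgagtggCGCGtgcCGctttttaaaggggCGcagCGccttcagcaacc
CLDN1: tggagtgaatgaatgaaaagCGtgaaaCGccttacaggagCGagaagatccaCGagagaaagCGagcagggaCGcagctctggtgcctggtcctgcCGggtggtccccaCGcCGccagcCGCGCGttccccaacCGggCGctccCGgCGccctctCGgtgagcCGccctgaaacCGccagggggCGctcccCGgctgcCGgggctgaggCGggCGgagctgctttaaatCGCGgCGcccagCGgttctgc
ITGB6: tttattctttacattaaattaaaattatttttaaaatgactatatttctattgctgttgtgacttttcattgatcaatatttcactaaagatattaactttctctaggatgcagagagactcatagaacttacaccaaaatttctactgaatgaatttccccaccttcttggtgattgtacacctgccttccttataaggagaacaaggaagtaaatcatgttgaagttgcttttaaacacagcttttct
GYPC: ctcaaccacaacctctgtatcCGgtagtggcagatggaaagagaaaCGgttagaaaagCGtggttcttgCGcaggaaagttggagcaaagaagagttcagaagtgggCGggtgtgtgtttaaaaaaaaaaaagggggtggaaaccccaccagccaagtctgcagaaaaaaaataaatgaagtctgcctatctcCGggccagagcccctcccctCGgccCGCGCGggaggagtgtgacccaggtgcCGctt
TRIM58: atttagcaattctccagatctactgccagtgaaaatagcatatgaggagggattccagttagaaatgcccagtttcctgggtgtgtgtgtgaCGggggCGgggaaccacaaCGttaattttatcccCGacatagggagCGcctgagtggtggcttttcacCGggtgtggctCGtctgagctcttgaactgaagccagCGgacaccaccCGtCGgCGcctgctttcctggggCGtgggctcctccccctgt
F13A1: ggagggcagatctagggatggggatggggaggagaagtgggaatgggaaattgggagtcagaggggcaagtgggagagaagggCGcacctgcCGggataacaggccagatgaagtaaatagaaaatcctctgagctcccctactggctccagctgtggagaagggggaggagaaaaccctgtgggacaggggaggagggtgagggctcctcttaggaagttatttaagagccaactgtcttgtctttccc

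In K562-only windows the upstream sequences of SI and ITGB6 held 0 CG dinucleotides at 31.6% and 30.0% GC. ATOH1 and CLDN1, in the same class, held 18 and 28 at 55.2% and 68.8% GC. In HCT116-only windows GYPC held 11 at 52.8% GC, TRIM58 held 12 at 56.0% and F13A1 held 2 at 55.6%. Over 20140 protein-coding genes the median was 18 CG dinucleotides (quartiles 7 and 26), so CLDN1 lay above it, ATOH1 at it, and SI, ITGB6 and the 3 HCT116-only genes below it. By class the median GC of the upstream 250 bases was 56.0% in both lists (95% interval 54.0 to 58.0, 807 genes) and 56.8% in K562 only (55.2 to 58.0, 1475 genes). It was 61.6% in HCT116 only (60.8 to 62.4, 1479 genes) and 63.6% in neither (63.6 to 64.0, 16379 genes). Upstream sequences with 10 or more CG dinucleotides made up 51.8% in both, 56.9% in K562 only, 63.3% in HCT116 only, 72.6% in neither and 69.9% of all.

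The K562 list covered more of the genome than the HCT116 list and the overlap between them was partial. K562 regions covered 1227 Mb (39.6% of the genome) and HCT116 regions 834 Mb (26.9%). Of all windows, 5917 (19.1%) were called in both lists, 6357 (20.5%) in K562 only, 2427 (7.84%) in HCT116 only and 16269 (52.5%) in neither. Of the windows called in either list, 40.2% were shared, 43.2% were K562 only and 16.5% HCT116 only. Of the K562 windows 48.2% were also HCT116 windows, and of the HCT116 windows 70.9% were also K562 windows. The Jaccard index, the number of shared windows divided by the number called in either list, was 0.402, where list sizes differing 1.47-fold would allow at most 0.680.

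Between the lines the lists overlapped less than the lists of 1 line did, and the K562 list was larger than each HCT116 list. Beside the bulk list, 6 further asynchronous HCT116 lists were deposited, made from 1e6, 200k and 50k counted cells and from cells sorted as G1, S and G2. The authors obtained lower cell numbers by diluting harvested cells, so the HCT116 lists may not be independent. K562 gave Jaccard indices of 0.380 to 0.425 with the 7 HCT116 lists. The HCT116 bulk list gave 0.664 to 0.727 with the 6 others, and all 21 pairs of the HCT116 lists lay between 0.664 and 0.859. The K562 cTSA-seq list gave 0.694 with the K562 TSA-seq list. List sizes alone would allow at most 0.504 to 0.575 for K562 with the 6 further lists, so for these the Jaccard index could not reach the values within HCT116. The share of the smaller list's windows that the larger list also called was 70.9% to 83.8% for K562 with the 7 HCT116 lists, 88.8% to 95.9% for the 21 pairs of HCT116 lists and 88.9% for K562 cTSA-seq with TSA-seq. Among the HCT116 lists the bulk list stood apart. It held 8344 windows against 6180 to 7062 in the 6 others, and 70.9% of its windows were also K562 windows against 80.8% to 83.8% of theirs. With the list from 1e6 HCT116 cells in place of the bulk list, HCT116-only windows fell in number from 2427 to 1159, while the Jaccard index stayed at 0.402. The samples of the series include 1 pull-down and 1 input library of 1e6 cells, against 2 of each for bulk cells. For 200k and for 50k cells they include 2 pull-down libraries and 1 input library. With the K562 regions shared by cTSA-seq and TSA-seq as the K562 list, HCT116-only windows numbered 3957 and the Jaccard index was 0.330.

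Most K562-only sequence lay in regions wholly absent from the HCT116 list, and most HCT116-only sequence lay in regions that the K562 list held in part. Of the 664 K562 regions, 304 (45.8%, Wilson 95% interval 42 to 49.6) had no base in an HCT116 region, 203 lay partly and 157 wholly within HCT116 regions. Of the 443 HCT116 regions, 111 (25.1%, 21.2 to 29.3) had no base in a K562 region, 211 lay partly and 121 wholly within them. These intervals cover counting alone, and neighbouring regions are not independent. Regions without overlap summed to 460 Mb of the K562 list and 99.4 Mb of the HCT116 list, and the remaining single-line sequence, 176 Mb and 143 Mb, belonged to regions that overlapped. Regions without overlap were shorter in both lists, with a median of 1.1 Mb against 1.6 Mb for overlapping K562 regions and 0.7 Mb against 1.6 Mb for HCT116. A longer region has more bases that can meet the other list, so length alone favours this order. Among regions of at least 1 Mb, 164 of 428 K562 regions and 35 of 281 HCT116 regions had no overlap.

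The lists had the same median region length, 1.3 Mb with quartiles of 0.7 and 2.3 Mb, and differed in their shortest regions. The K562 list held 0 regions of 100 kb or less and the HCT116 list 15. Unbroken stretches of the classes differed more. Shared stretches had a median length of 1.1 Mb (390 stretches), K562-only stretches 0.7 Mb (579) and HCT116-only stretches 0.4 Mb (416). Single windows made up 2.82% of shared, 12.4% of K562-only and 20.2% of HCT116-only stretches. Stretches of at least 2 Mb held 55.5% of shared, 49.2% of K562-only and 22.9% of HCT116-only sequence. Of the K562-only stretches, 304 touched no shared stretch, 245 touched 1 and 30 lay between shared stretches. For HCT116 these numbers were 111, 247 and 58. Region borders coincided within 1 window at 253 places, which is 19.1% of the 1328 K562 borders and 28.6% of the 886 HCT116 borders.

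**Figure D1:**
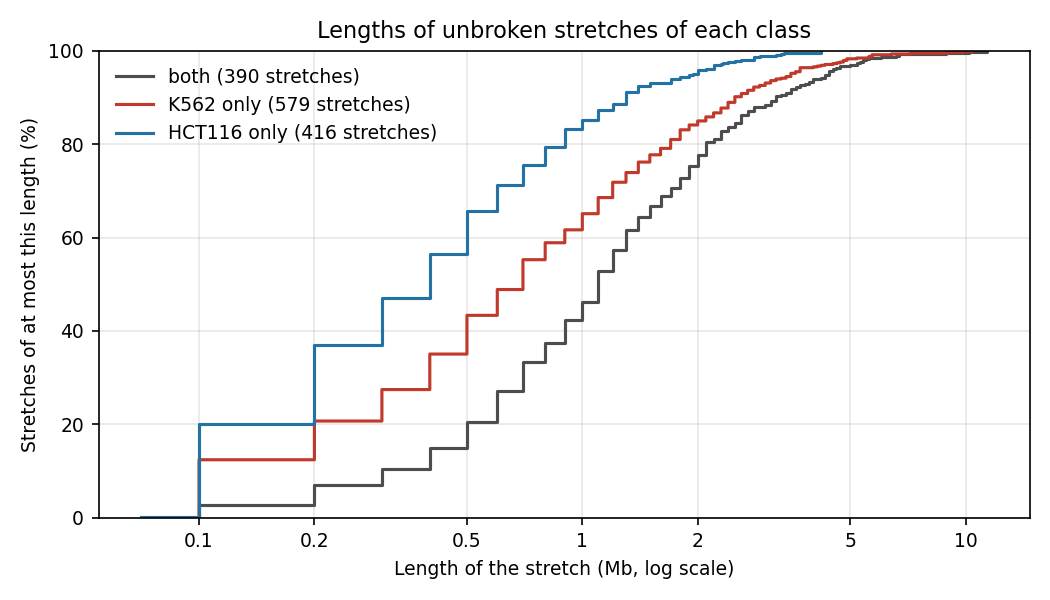
Cumulative share of stretches (y axis, percent) by stretch length (x axis, Mb, log scale) for windows called in both lists, in K562 only and in HCT116 only. The HCT116-only curve rises first, with a median of 0.4 Mb against 0.7 Mb for K562 only and 1.1 Mb for both.

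K562-only windows were AT-rich and resembled the shared windows in base composition, while HCT116-only windows resembled windows called in neither list. The median GC content was 37.8% in both, 37% in K562 only, 42.3% in HCT116 only and 42.3% in neither. Windows under 37% GC made up 37.5% of shared, 50.4% of K562-only, 9.65% of HCT116-only and 7.39% of uncalled windows. Windows of 42% GC or more made up 12.9%, 4.81%, 52.7% and 52.7% of these classes. The observed over expected ratio of CG dinucleotides had medians of 0.182 in both, 0.181 in K562 only, 0.217 in HCT116 only and 0.242 in neither. With the list from 1e6 cells in place of the HCT116 bulk list, the median GC content of HCT116-only windows was 39.4%.

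Read the other way, the share of K562-only windows fell from bin to bin along the GC scale, and that of HCT116-only windows was highest at 44 to 46% GC. Of the 1791 windows at 33 to 35% GC, 56.8% were K562 only and 3.29% HCT116 only. At 40 to 42% GC the shares were 14.8% and 10.4%, close to each other. At 44 to 46% GC they were 2.47% and 15.3%. At 50% GC and above, 1 of 1844 windows was K562 only and 209 were HCT116 only.

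**Figure D2:**
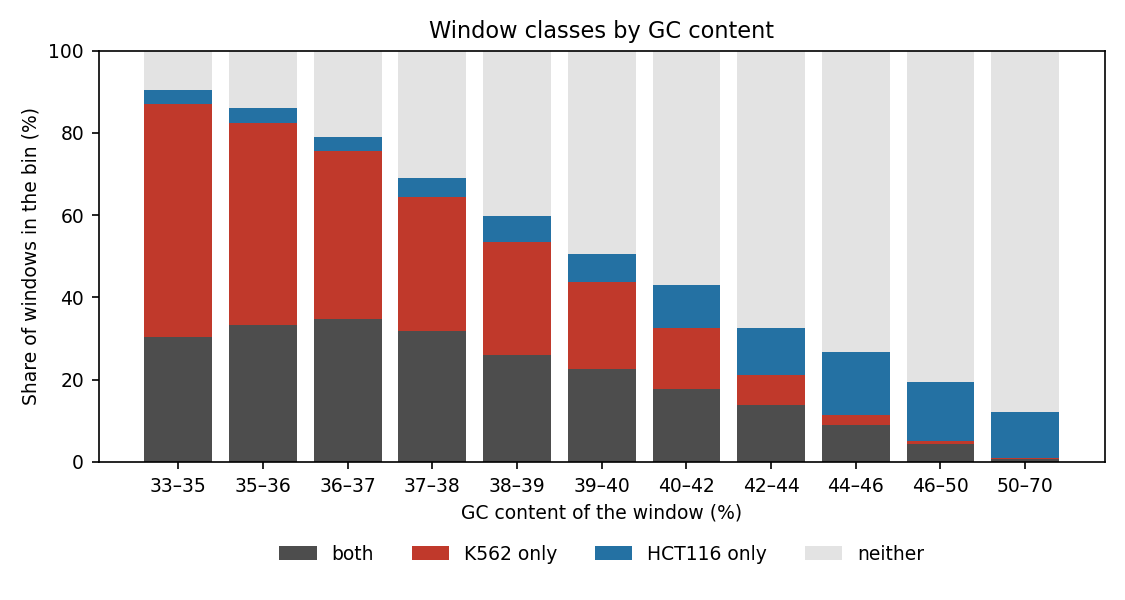
Share of windows in each class (y axis, percent, stacked to all windows of the bin) by GC content of the window (x axis, percent). K562-only windows fill 56.8% of the bin at 33 to 35% GC and 2.47% of the bin at 44 to 46%, where HCT116-only windows reach 15.3%.

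The single-line windows also differed in position. Of all windows, 7.83% lay within 5 Mb of a chromosome end. The share was 6.24% for shared, 0.944% for K562-only and 19.2% for HCT116-only windows, which is 60 of 6357 and 467 of 2427.

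Gene density was lowest in shared windows, higher in K562-only windows and higher again in HCT116-only windows. A protein-coding gene was counted in a class that held 80% or more of its length, and there were 1.30 genes per Mb in both (exact Poisson 95% interval 1.21 to 1.4), 2.20 in K562 only (2.09 to 2.32), 5.87 in HCT116 only (5.57 to 6.19) and 9.94 in neither (9.79 to 10.1). These are 770, 1398, 1424 and 16167 of 20162 genes (3.82%, 6.93%, 7.06% and 80.2%), and 403 genes were split between classes. The Mb of neither include assembly gaps, which lower its density. The 1424 HCT116-only genes lay in 242 Mb and the 1398 K562-only genes in 636 Mb. With the list from 1e6 cells in place of the bulk list, HCT116-only windows held 334 genes (2.88 per Mb) and K562-only windows 1517 (2.21 per Mb). The median gene length was 43.1 kb in both, 54.9 kb in K562 only, 25 kb in HCT116 only and 24.9 kb in neither.

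Very long genes lay in shared and K562-only windows in larger shares than shorter genes did, and in HCT116-only windows in a slightly smaller share. Of the 324 genes of at least 500 kb, 101 (31.2%) lay in both, 69 (21.3%) in K562 only, 18 (5.56%) in HCT116 only and 57 (17.6%) in neither, and 79 were split. Among genes under 500 kb the shares were 3.37%, 6.70%, 7.09% and 81.2%. A very long gene can be counted only where a class runs on over most of its length. Stretches had medians of 1.1 Mb in both, 0.7 Mb in K562 only and 0.4 Mb in HCT116 only. The part of stretch length in these shares was not tested. The longest K562-only genes included LRP1B, a lipoprotein receptor family gene of 1900 kb, CTNNA3, an alpha-catenin gene, CCSER1, MAGI2, a synaptic scaffold gene, RBMS3, ENSG00000283563, which overlaps RBMS3, NAALADL2, PRKG1, a cGMP-dependent protein kinase gene, and GALNTL6. TSA-seq called 89.3% to 100% of each of them in K562 cells. LRP1B, CTNNA3, CCSER1, NAALADL2 and GALNTL6 had no called sequence in any of the 6 further HCT116 lists. Of RBMS3, the S and G2 lists each called 54.6%, the 1e6 list 47.6%, the 50k list 33.7% and the 200k and G1 lists 0%. The 200k list called 41.8% of MAGI2 and 30.6% of PRKG1. The list of HCT116 cells 180 min after release from mitotic arrest called 94.2% of RBMS3 and 76.5% of PRKG1.

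The 10 longest HCT116-only genes were KAZN, a cell junction gene of 1225 kb, ZFPM2, a GATA cofactor gene, ASIC2, an acid-sensing channel gene, PARD3B, a polarity gene, PTPRN2, DLGAP2, a synaptic scaffold gene, TENM1, a teneurin gene, ENSG00000285708, TRAPPC9, a vesicle transport gene, and CDH4, a cadherin gene. At least 80% of ASIC2, PARD3B and TENM1 was called in all 6 further HCT116 lists. At least 80% of TRAPPC9 was called in 0 of them. TENM1 stood apart in the K562 data, since TSA-seq called 84.5% of it there while the K562 cTSA-seq list did not.

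The longest stretches of the classes held different kinds of sequence. The longest shared stretch was chr5:17200001-28600000 (11.4 Mb, 35.5% GC), with the cadherin genes CDH18, CDH12, CDH9 and CDH10. It was followed by chr4:58000001-68200000 (10.2 Mb, 35.3% GC), with the adhesion receptor gene ADGRL3, the ephrin receptor gene EPHA5 and TECRL. The third was chrX:86900001-95800000 (8.9 Mb, 36.1% GC), with the protocadherin gene PCDH11X, FAM133A, CPXCR1 and PABPC5. Each was called over 94.7% to 100% by TSA-seq in K562 cells and over 96.5% to 100% in the further HCT116 lists.

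All 3 of the longest K562-only stretches lay on chromosome 4. They were chr4:27100001-37500000 (10.4 Mb, 35.4% GC), with the protocadherin gene PCDH7, ARAP2, NWD2 and DTHD1, and chr4:160400001-170200000 (9.8 Mb, 36.5% GC), with the ubiquitin ligase gene MARCHF1, FSTL5, SPOCK3 and the actin-associated gene PALLD. The third was chr4:130100001-139100000 (9 Mb, 35% GC), with the protocadherin genes PCDH10 and PCDH18 and PABPC4L. TSA-seq called 98.1%, 92.9% and 98.9% of them in K562 cells, and each of the 6 further HCT116 lists called 0% of them. In base composition these stretches were like the shared ones, and the lines differed over their whole length.

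The 3 longest HCT116-only stretches were shorter and of different kinds. The first, chr1:2200001-6400000 (4.2 Mb, 52.3% GC, 33 protein-coding genes), held the zinc finger gene PRDM16, TTC34, AJAP1 and the cilium gene NPHP4. The third, chr12:130500001-133851895 (3.35 Mb, 50.1% GC, 32 genes), reached the end of the chromosome and held RIMBP2, GALNT9, ADGRD1 and the checkpoint gene CHFR. TSA-seq called 0% of either, and 40.5% and 76.5% of them lay in the list of K562 regions depleted of lamin-B1 signal. The further HCT116 lists called between 33.3% and 64.3% of the first and between 20.6% and 47.1% of the third. The list of HCT116 cells 90 min after release from mitotic arrest, named 90m G1, called 90.5% and 97.1%. The second, chr9:22500001-26700000 (4.2 Mb, 36.3% GC, 3 genes), held the neuronal RNA-binding protein gene ELAVL2, IZUMO3 and TUSC1. It was called over 95.2% to 100% in the further HCT116 lists, over 4.76% in 90m G1 and over 14.3% by TSA-seq in K562 cells. It lies on the arm where K562 is known to have deletions, whose part in the missing K562 call was not tested.

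The other lists separated the classes in the same manner genome-wide. Of the shared windows, 83.4% to 90.2% were called in each of the 6 further HCT116 lists. Of the K562-only windows, 2.56% to 7.55% were, and 12.3% were called in at least 1 of them. Of the HCT116-only windows, 37.9% to 47.3% were called in each, 61.1% in at least 1 and 25.3% in all 6. The remaining 945 HCT116-only windows (38.9%) were called in the bulk list and in none of the 6. TSA-seq in K562 cells called 74.1% of the shared, 77.7% of the K562-only, 11.9% of the HCT116-only and 5.37% of the uncalled windows. Of the HCT116-only windows, 11.7% were lamin-depleted in K562 and 76.3% were in neither the TSA-seq nor the depleted list. For the uncalled windows these shares were 37.9% and 56.7%, with assembly gaps among the latter. A separate K562 measurement thus called most of the K562-only class, whereas each further asynchronous HCT116 list called under 50% of the HCT116-only class. The list named 180m G1, from HCT116 cells 180 min after release, called 78.3% of the shared, 10.6% of the K562-only and 34.3% of the HCT116-only windows.

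**Figure D3:**
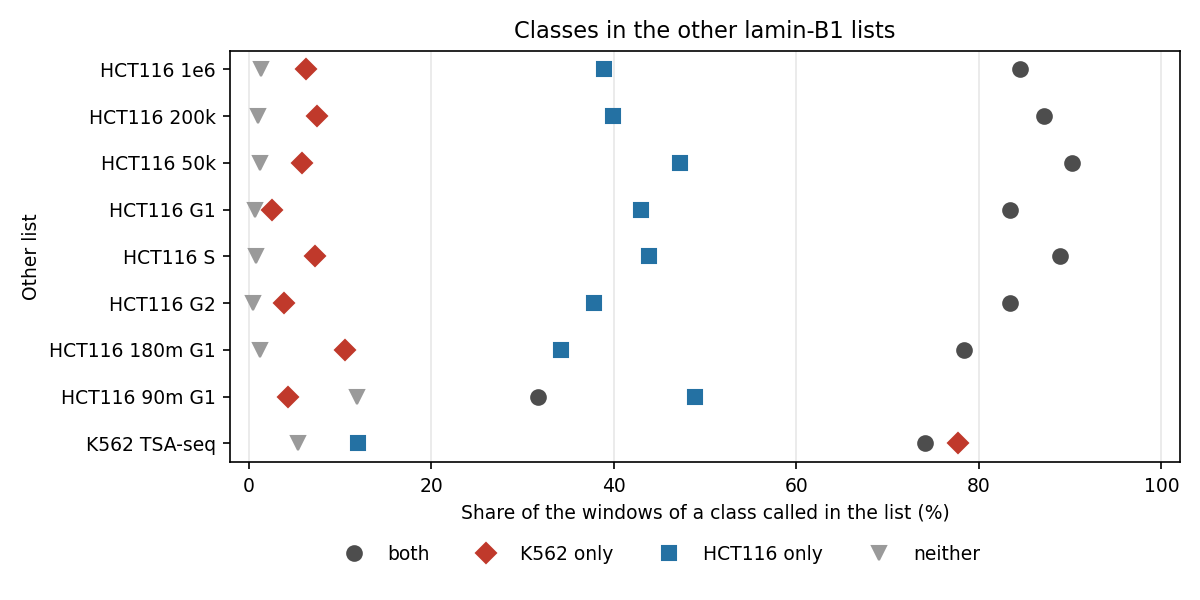
Share of the windows of each class (x axis, percent) that each other list called (y axis, 8 HCT116 lists and the K562 TSA-seq list). K562-only windows lie at 2.56% to 10.6% in the HCT116 lists and at 77.7% in TSA-seq, and HCT116-only windows at 34.3% to 48.9% in the HCT116 lists and at 11.9% in TSA-seq.

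The HCT116-only class was mixed. The 90m G1 list called 48.9% of its windows, against 31.7% of the shared, 4.29% of the K562-only and 11.9% of the uncalled windows. The 1187 HCT116-only windows that 90m G1 also called had a median GC content of 44.8% (95% interval 44.5 to 45.2), 7.35 genes per Mb (6.87 to 7.85) and 36% of their number within 5 Mb of a chromosome end. The other 1240 had 40.4% GC (40.2 to 40.7), 4.45 genes per Mb (4.09 to 4.84) and 3.23% near an end. The 945 windows called in none of the 6 further asynchronous lists had 45.0% GC (44.6 to 45.3) and 8.82 genes per Mb (8.23 to 9.44), and the 588 of these that 90m G1 called had 46.1% GC (45.7 to 46.4) and 9.56 genes per Mb (8.79 to 10.4). The 401 windows (16.5% of the class) called in all 6 and not by TSA-seq had 40.4% GC (39.7 to 41.0) and 1.87 genes per Mb (1.47 to 2.34). Near an end lay 11.2% of these 401, 23.9% of the 945 and 35.2% of the 588, beside 7.83% of all windows.

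The K562-only class was restricted by a different rule, and its restricted windows had lower GC content and gene density than the whole class. Its 4307 windows (67.8% of the class) that TSA-seq called and none of the 6 HCT116 lists did had 36.3% GC (36.2 to 36.4) and 1.76 genes per Mb (1.64 to 1.89). Of these windows 0.441% lay within 5 Mb of a chromosome end. The restricted HCT116-only windows, held to 6 further lists of their line rather than 1, had 40.4% GC and 1.87 genes per Mb. The intervals given count windows and genes, which are not independent. With 1 merged list per line, the difference between the restricted classes was not tested. These restrictions were chosen after the data were examined.

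Chromosomes differed widely in the shares of the classes. The shares are of all windows of a chromosome, assembly gaps included. The K562-only share had a median over 24 chromosomes of 16.5%, from 0% on chromosome 22 to 50.3% on chromosome 4. On chromosome 4 the K562 list called 63.2% of the windows and the HCT116 list 17.1%, with 961 K562-only and 78 HCT116-only windows. The HCT116-only share had a median of 7.20%, from 0.973% on chromosome 22 to 17.7% on chromosome Y, where K562 calls covered 33 windows. K562 is known to have no Y chromosome, so Y gives no comparison of the lines. The origin of the K562 calls there was not tested. Among autosomes the HCT116-only share was highest on chromosome 16 at 14.9%, against 1.22% K562 only there, and on chromosome 19 it was 13% against 0.676%. The shared share ran from 0.778% on chromosome 22 to 38.8% on chromosome 18, with a median of 19.5%.

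K562-only windows outnumbered HCT116-only windows on 18 of the 24 chromosomes. The Jaccard index had a median of 0.425, from 0.140 on chromosome 12 to 0.629 on chromosome 18. On chromosome 12 there were 83 shared, 361 K562-only and 147 HCT116-only windows. Chromosome Y, which K562 is known to lack, followed at 0.188, then chromosomes 4, 19 and 6 at 0.193, 0.236 and 0.248. As a description over 24 chromosomes, the K562-only share fell with the GC content of the chromosome (Spearman's rho -0.69, Pearson's r -0.70). Without chromosome Y these were -0.84 and -0.80. The HCT116-only share gave 0.003 and -0.06. The chromosomes share their libraries and differ in length, so no p is given.

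**Figure D4:**
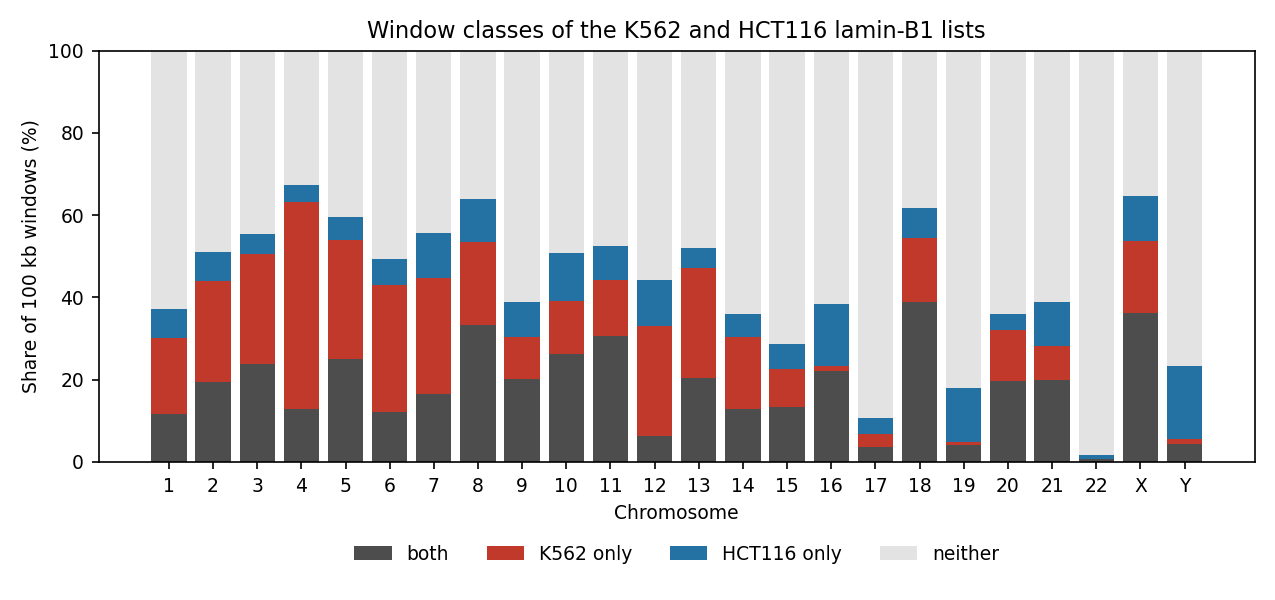
Share of the 100 kb windows of each chromosome (y axis, percent, stacked) called in both lists, in K562 only, in HCT116 only and in neither (x axis, chromosomes 1 to 22, X and Y). K562-only windows fill 50.3% of chromosome 4 and 0% of chromosome 22, and HCT116-only windows exceed K562-only windows most clearly on chromosomes 16, 19 and Y. K562 is known to lack chromosome Y.

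Genes of the blood lineages and of epithelia were for the most part outside the called regions of both lines. Of the 118 genes of the erythroid, megakaryocyte and platelet, myeloid and lymphoid lists, 105 (89.0%) lay in neither, beside 80.2% of all genes. In K562-only windows lay 3 of them (2.54%, beside 6.93%), in HCT116-only windows 5 (4.24%, beside 7.06%) and in both 4 (3.39%, beside 3.82%). Of the 94 genes of the intestinal and general epithelial lists, 85 (90.4%) lay in neither, 6 (6.38%) in K562 only, 1 (1.06%) in HCT116 only and 1 (1.06%) in both. The epithelial share of K562-only windows was near that of all genes, so nothing is read from it about epithelial genes as a group.

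Among the erythroid genes 36 of 42 (85.7%) lay in neither list. This is near the 80.2% of all genes, so nothing is read from it about erythroid genes as a group. The globin genes and GATA1, the erythroid master regulator, were among these 36. GYPC and TRIM58 were HCT116 only, BCL11A, the repressor of fetal globin, lay in both, and CA1 and CA2, carbonic anhydrases of red cells, were K562 only. GYPC was called in 5 of the 6 further HCT116 lists and was not called by TSA-seq in K562 cells. TRIM58 was called in all 6, but TSA-seq also called 100% of it in K562 cells, against the K562 cTSA-seq list. TSA-seq called 0% of CA1 and CA2, and they were in 0 of the 6 HCT116 lists, so the K562 lists disagreed on them. BCL11A was likewise uncalled by TSA-seq and by the 6 HCT116 lists.

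Among the 20 megakaryocyte and platelet genes F13A1 was HCT116 only and called in all 6 further HCT116 lists, and the transcription factor genes FLI1 and MEIS1 lay in both. MEIS1 was called in all 6 further HCT116 lists and FLI1 in 0, and TSA-seq called 0% of either in K562 cells. All 26 myeloid genes lay in neither, beside 80.2% of all genes. Among the 30 lymphoid genes IL7R, the interleukin-7 receptor gene, was K562 only, and ICOS, a costimulatory receptor gene of T cells, was HCT116 only. Other lists called them rarely. At least 80% of ICOS was called in 1 of the 6 further HCT116 lists. IL7R was called in 1 of the 6 and was not called by TSA-seq.

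Among the 44 intestinal genes SI, MEP1A, a brush border protease gene, and ATOH1 were K562 only and OLFM4, a gene of intestinal stem cells, lay in both. Among the 50 general epithelial genes CLDN1, ITGB6 and LAMA3, a laminin subunit gene, were K562 only and ST14, a membrane protease gene, was HCT116 only. TSA-seq called 100% of SI, ATOH1, CLDN1 and ITGB6 in K562 cells and 0% of MEP1A and LAMA3. None of these 6 genes had called sequence in a further HCT116 list. ST14 was in 0 of the 6 lists and was called over 100% by 90m G1. The start of LAMA3 lay in a window called in neither list.

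Gene lists of tissues that neither line represents varied in their shares, beside 3.82% of all genes in both, 6.93% in K562 only, 7.06% in HCT116 only and 80.2% in neither. Of 35 neuronal genes 13 (37.1%) lay in both, 12 (34.3%) in K562 only, 1 (2.86%) in HCT116 only and 5 (14.3%) in neither. The list includes very long genes such as CNTNAP2 and NRXN3. Of all genes of at least 500 kb, 31.2% lay in both and 21.3% in K562 only, and gene length was not matched. The HCT116-only gene was GRIN2A, a glutamate receptor gene, named after its class was seen. Of 32 liver genes 7 (21.9%) lay in K562 only, 3 (9.38%, near the share of all genes) in HCT116 only and 21 (65.6%) in neither. The 7 included the glucuronosyltransferase genes UGT2B7 and UGT2B4, which are neighbours on chromosome 4 and so not separate observations. Of 30 muscle genes 4 (13.3%) lay in K562 only, 1 in HCT116 only and 23 (76.7%, near the share of all genes) in neither. Of 28 housekeeping genes 27 lay in neither.

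**Figure D5:**
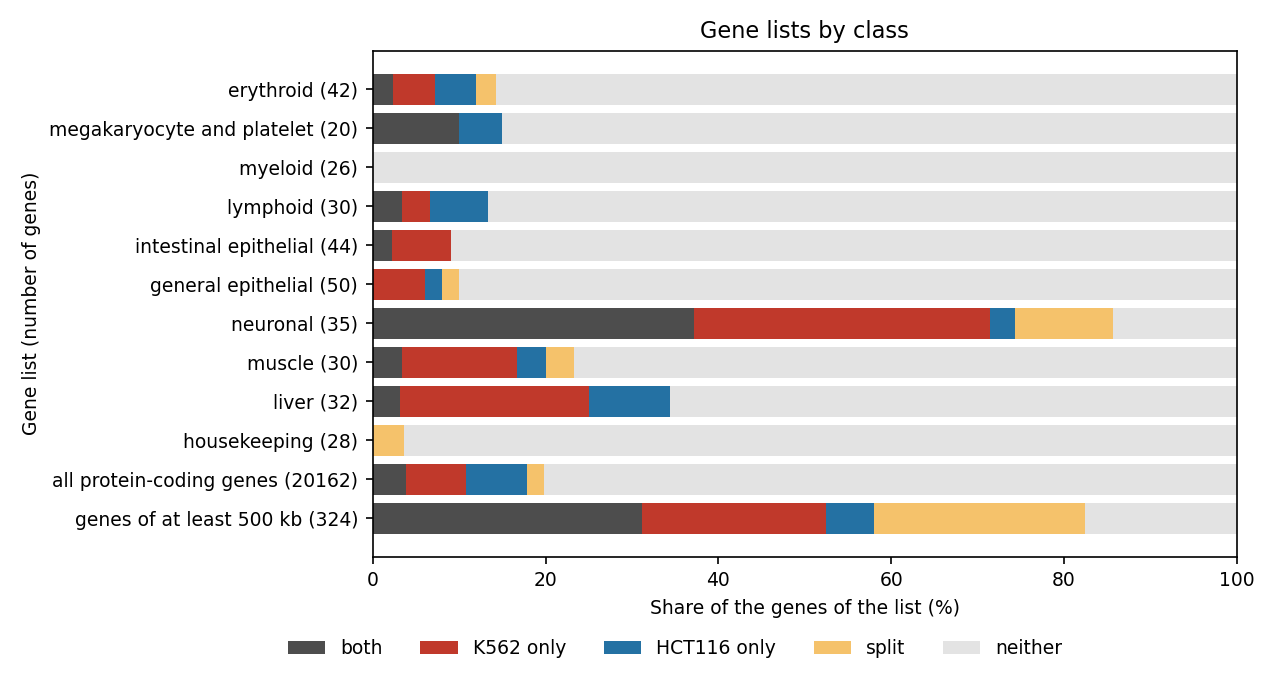
Share of the genes of each list (x axis, percent, stacked) by class (y axis, list with its number of genes), where split genes have less than 80% of their length in any class. Blood cell, epithelial and housekeeping lists lie at 85.0% to 100% in neither, beside 80.2% of all genes. The neuronal list has 37.1% in both and 34.3% in K562 only.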

How the data were processed

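Lamin-B1 cTSA-seq was done on K562 and HCT116 bulk cells, 2 replicates each. The authors aligned reads to hg19 with Bowtie2 2.3.2, removed duplicates, counted reads in windows with bedtools 2.26.0, scaled pull-down and input libraries, took log2 ratios and z-scores, fitted a hidden Markov model of 3 states and kept regions called in both replicates. The deposited values used are the starts and ends of regions in base pairs.

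Here the chromosomes 1 to 22, X and Y were cut into 100 kb windows, and a window counted as called with at least 50% of its bases in a region. GC content was taken from windows with at least 50% sequence, and genes from GENCODE release 44 on hg19. Python 3.11.15, numpy 2.4.6 and scipy 1.17.1 were used. On simulated lists 0 of 154850 windows changed class.

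Genes were named by rule, namely those of the 3 longest stretches per class, the 10 longest per single-line class, and blood cell or epithelial list members in 1 line. Some genes that the rule names are not reported here. Members and lists were chosen with earlier results of these data known. Pairwise agreement between all lists, other region, gene and sequence limits, and replacement of either list were tried. 1 list per line leaves no replicates to test.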

Additional observations from a re-analysis of the deposited data

How the results depend on the processing

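No paired analysis was possible because each line has 1 list with its replicates merged. Of 140 values under other settings, 82 stayed within their counting interval or within 1.5 times the count and 58 moved further. The intervals are narrow because they count windows, which are not independent, so many moves are small. The lists hold no read depth, weak regions cannot be told from absent ones, and copy number was not analysed here. The cause of no move was tested beyond what a setting itself changes.

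With the list from 1e6 cells, HCT116-only windows numbered 1159, 44% of K562 windows were shared and 82.3% of HCT116 windows, the median HCT116 region was 1 Mb, GC medians were 37.3% in both, 37.4% in K562 only, 39.4% in HCT116 only and 42.6% in neither, gene densities were 1.17 per Mb in both and 2.88 in HCT116 only, 5 blood cell genes were K562 only and 0 epithelial genes HCT116 only. With the regions common to cTSA-seq and TSA-seq as the K562 list, HCT116-only windows numbered 3957, 47.0% of K562 and 52.6% of HCT116 windows were shared, the Jaccard index was 0.330, 0 blood cell genes were K562 only and 9 HCT116 only, and 3 epithelial genes were HCT116 only.

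On autosomes 46.7% of K562 windows were shared, the Jaccard index was 0.393, GC medians were 37.9% in both and 42.8% in HCT116 only, 10.2 genes per Mb lay in neither, and 59.0% of HCT116-only windows were in a further asynchronous list. With a match within 1 window, 50.7% of K562 and 75.3% of HCT116 windows were shared, the Jaccard index was 0.449, TSA-seq called 81.0% of K562-only windows, further HCT116 lists called 13.1% of K562-only and 67.7% of HCT116-only windows, and all 6 called 30% of the latter.

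Means in place of medians were 1.85 Mb and 1.88 Mb for K562 and HCT116 regions and 38.4%, 37.4%, 42.9% and 43.2% GC for both, K562 only, HCT116 only and neither. Away from class borders the GC medians were 37.5%, 36.7% and 42.7% for both, K562 only and neither. By transcription start 2.32 genes per Mb were K562 only and 2 epithelial genes HCT116 only. With whole genes the densities were 1.19 in both and 2.02 in K562 only. Genes of all types gave 10.3, 11.7, 24.3 and 27.2 per Mb for both, K562 only, HCT116 only and neither.

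In the settings added after the data were examined, windows that other lists bore out had 36.3% GC and 1.76 genes per Mb in K562 only and 40.4% GC and 1.87 genes per Mb in HCT116 only, with 0 blood cell genes in K562 only, 1 in HCT116 only and 0 epithelial genes in HCT116 only. HCT116-only windows outside 90m G1 had 40.4% GC and 4.45 genes per Mb.

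Leaving out each chromosome in turn gave 5354 to 5913 shared, 5396 to 6357 K562-only and 2250 to 2422 HCT116-only windows, a shared part of 46.8% to 51.2% of K562 and 70.04% to 71.9% of HCT116 windows, and a Jaccard index of 0.391 to 0.423. Under every setting the number of K562-only windows exceeded that of HCT116-only windows. Where windows were matched exactly, this follows from the larger size of the K562 list and is no separate result.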
